A study of Mus musculus with 9 samples.

Results

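The lungs of C57BL/6 mice that had received Aspergillus fumigatus hyphal fragments were compared with those of mice that had received normal saline. The comparison takes 6 of the 9 RNA-seq libraries of the series: control replicates 1 to 3 (saline) and hyphae replicates 1 to 3. All were made from whole lung taken 24 h after the inoculum was placed in the trachea, with poly(A) RNA sequenced on a BGISEQ instrument, and the series title calls the mice immunocompetent. The remaining 3 libraries, from mice given conidia and treated alike in time and route, were used only where the response to hyphal fragments was set beside them. Nothing in the labels states that each library is a separate animal, so each p-value measures the spread between these libraries, which may be technical. They give neither the amount of fungus, nor its strain, nor whether the hyphal fragments were alive, and only mouse genes were measured, so the inoculum itself was not checked here.

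Aspergillus fumigatus is a mould whose airborne conidia are inhaled and, if not cleared, germinate into hyphae, the filaments that invade tissue. Hyphal walls expose β-glucan and other polysaccharides that myeloid cells sense through C-type lectin receptors such as Dectin-1 and through Toll-like receptors. The C-type lectin receptors signal to NF-kB by way of CARD9, BCL10 and MALT1. The chemokines and cytokines made in response draw neutrophils out of the blood, and neutrophils attack filaments that are too large for a macrophage to engulf.

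Each value is in FPKM (fragments scaled to transcript length and to the library's mapped fragments), as deposited. Differences are hyphae minus control, of means of log2(FPKM + 1) over 3 libraries a group, so they understate the change of genes of low level. limma's moderated test was run on the 13548 genes that reached 1 FPKM in at least 3 of the 6 libraries, of 18984 in the files, with Benjamini-Hochberg adjustment over all of them. Every difference was also computed after median-of-ratios rescaling, which divides each library by 1 factor so that the typical gene is level. In what follows a gene "rose" or "fell" only if its adjusted p was under 0.05 and its fold at least 2 under both scalings. By that rule 654 genes rose (4.83% of those tested) and 1070 fell (7.9%), and the counts of list members that rose or fell are to be read against those shares. Counts at an adjusted p alone have other shares, which are given beside them.

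Among the genes that rose were chemokines that attract neutrophils and the metallothioneins, which bind zinc and copper. The promoters of the Cxcl1, Cxcl2 and Cxcl3 genes and of Mt1 and Mt2 are shown because these are members of 2 small families that moved together. Each is the run of 250 bases before the start site, 5′ to 3′, from RefSeq on GRCm38.p6, all on the + strand. Capitals mark matches, on either strand and merged where they overlap. The patterns were GGGNNNNNCC, a loose form of the NF-kB motif, in the Cxcl promoters and TGCNCNC, a loose form of the metal response element core, in the Mt promoters. Some marked stretches may not fit a stricter form of either.
Cxcl1, chr5:90890995-90891244: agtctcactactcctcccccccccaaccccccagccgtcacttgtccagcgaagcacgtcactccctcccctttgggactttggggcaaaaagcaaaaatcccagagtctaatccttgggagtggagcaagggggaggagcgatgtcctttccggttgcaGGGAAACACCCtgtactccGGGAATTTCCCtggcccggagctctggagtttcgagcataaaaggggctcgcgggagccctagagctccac
Cxcl2, chr5:90903649-90903898: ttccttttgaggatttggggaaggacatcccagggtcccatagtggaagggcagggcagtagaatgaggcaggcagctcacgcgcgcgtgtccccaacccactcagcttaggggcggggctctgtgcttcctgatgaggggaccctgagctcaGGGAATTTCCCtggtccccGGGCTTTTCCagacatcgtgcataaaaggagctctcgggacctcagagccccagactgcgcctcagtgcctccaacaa
Cxcl3, chr5:90785851-90786100: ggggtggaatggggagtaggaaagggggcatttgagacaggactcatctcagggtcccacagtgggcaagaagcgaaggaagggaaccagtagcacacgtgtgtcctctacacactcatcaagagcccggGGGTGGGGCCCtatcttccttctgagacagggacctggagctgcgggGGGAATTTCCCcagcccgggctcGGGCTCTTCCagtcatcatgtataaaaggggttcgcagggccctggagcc
Mt1, chr8:94178839-94179088: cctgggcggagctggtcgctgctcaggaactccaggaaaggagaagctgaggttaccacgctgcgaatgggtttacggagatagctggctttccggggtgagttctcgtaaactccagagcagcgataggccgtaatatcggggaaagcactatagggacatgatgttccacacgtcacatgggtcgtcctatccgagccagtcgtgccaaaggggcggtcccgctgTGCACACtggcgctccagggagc
Mt2, chr8:94172368-94172617: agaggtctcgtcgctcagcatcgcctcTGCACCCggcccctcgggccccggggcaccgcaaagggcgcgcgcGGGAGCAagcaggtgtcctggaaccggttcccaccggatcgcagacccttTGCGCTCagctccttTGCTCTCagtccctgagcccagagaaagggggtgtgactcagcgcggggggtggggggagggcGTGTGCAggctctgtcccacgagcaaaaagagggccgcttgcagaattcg
The 3 Cxcl promoters hold the same run GGGAATTTCC, itself one form of GGGNNNNNCC, with its first base 71 bases before the start in Cxcl1, 97 in Cxcl2 and 73 in Cxcl3. That run was in 28 of the 32851 promoters of the table (0.0852%). It was in 5 of the 494 genes that rose and matched the table by symbol, of 654 (1.01%), in 1 of 837 that fell, of 1070 (0.119%) and in 8 of 9273 of the others tested (0.0863%). The run was picked because the 3 Cxcl promoters share it, and all 3 genes rose. They are among the 5 by that choice, so these shares do not test whether the run goes with a rise. The looser motif separated the groups little. A gene was counted if any of its promoters held the motif. GGGNNNNNCC was so found in 69.2% of genes that rose, 56.2% of those that fell and 66.8% of the rest. Over all promoters, each counted singly and so in another unit, the share was 45.8%. TGCNCNC was in 56.9%, 51.3% and 57.3% of these genes and in 44.4% of all single promoters, with 1 match in the Mt1 window and 5 in that of Mt2. Those match counts depend on the annotated starts and on the loose pattern, so they do not compare the genes. A match of letters is not a binding site, and neither binding nor promoter activity was measured.

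The transcripts of most genes were lower in the hyphae libraries as deposited. The median difference over the genes tested was -0.373 on the log2 scale, and 0 after rescaling. At an adjusted p under 0.05 alone, 2002 genes (14.8%) were higher and 6741 (49.8%) lower as deposited, but 4010 (29.6%) were higher and 3875 (28.6%) lower after rescaling, 64.5% and 58.2% of genes in all. With a fold of at least 2 as well, 654 (4.83%) were higher and 2317 (17.1%) lower as deposited, and 1240 (9.15%) and 1070 (7.9%) after rescaling. The 3 hyphae values lay all above the 3 control values in 17.4% of genes as deposited and all below them in 53.6%, so a lack of overlap on the low side was common. The median FPKM ran from 5.88 to 6.325 in the control libraries and from 3.6 to 4.05 in the hyphae libraries, and summed FPKM from 518913 to 561250 and from 492540 to 515755. Between 13419 and 13730 genes reached 1 FPKM in a control library and between 12451 and 12754 in a hyphae library. Libraries of one group were more alike (r of log2 values from 0.976 to 0.987 within control, from 0.960 to 0.980 within hyphae) than libraries of different groups (0.858 to 0.929). FPKM are shares of a library, so they do not tell whether a lung held less of a transcript in all. Nor can fewer cells of a type and less RNA per cell be told apart in whole tissue.

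**Figure D1:**
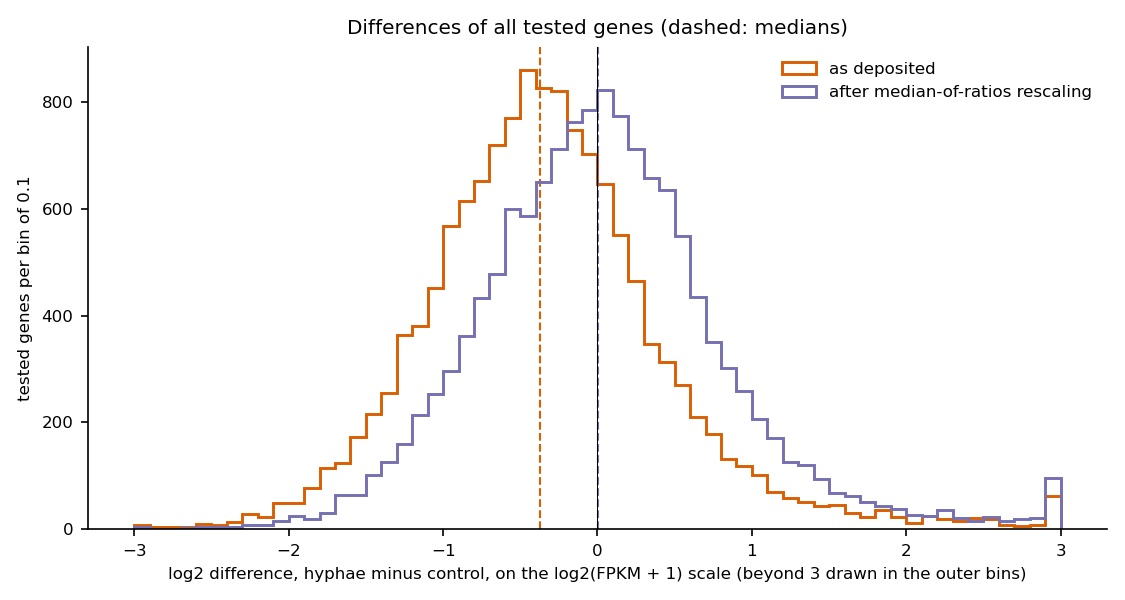
Histograms of the log2 difference, hyphae minus control, of the 13548 genes tested, as deposited and after median-of-ratios rescaling. The x axis is the difference in log2(FPKM + 1) with values beyond 3 gathered in the outer bins, the y axis is the number of genes, and lines mark the medians of -0.373 and 0. A shift of the whole distribution separates the scalings, so the direction of small differences depends on which is used.

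Lung markers checked the tissue. Sftpc, a surfactant protein gene that marks type 2 cells of the alveoli, was at 16041, 24128 and 22872 FPKM in the control and 24610.5, 21038 and 22379 FPKM in the hyphae libraries, which overlap. Other tissue was also present in some libraries: Nppa, an atrial muscle hormone, stood at 124, 8.95 and 20.8 FPKM in control and 2.59, 2.44 and 677 FPKM in hyphae. Control replicate 1 and hyphae replicate 3 had the most RNA of cardiac muscle markers in their groups (summed over 13 genes, 1813.8, 535.4 and 619.7 FPKM in control and 282.3, 134 and 2588.5 FPKM in hyphae). None of those 13 genes rose or fell, but 4 fell without hyphae replicate 3. The part of this tissue in the results below was not tested.

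**Figure D2:**
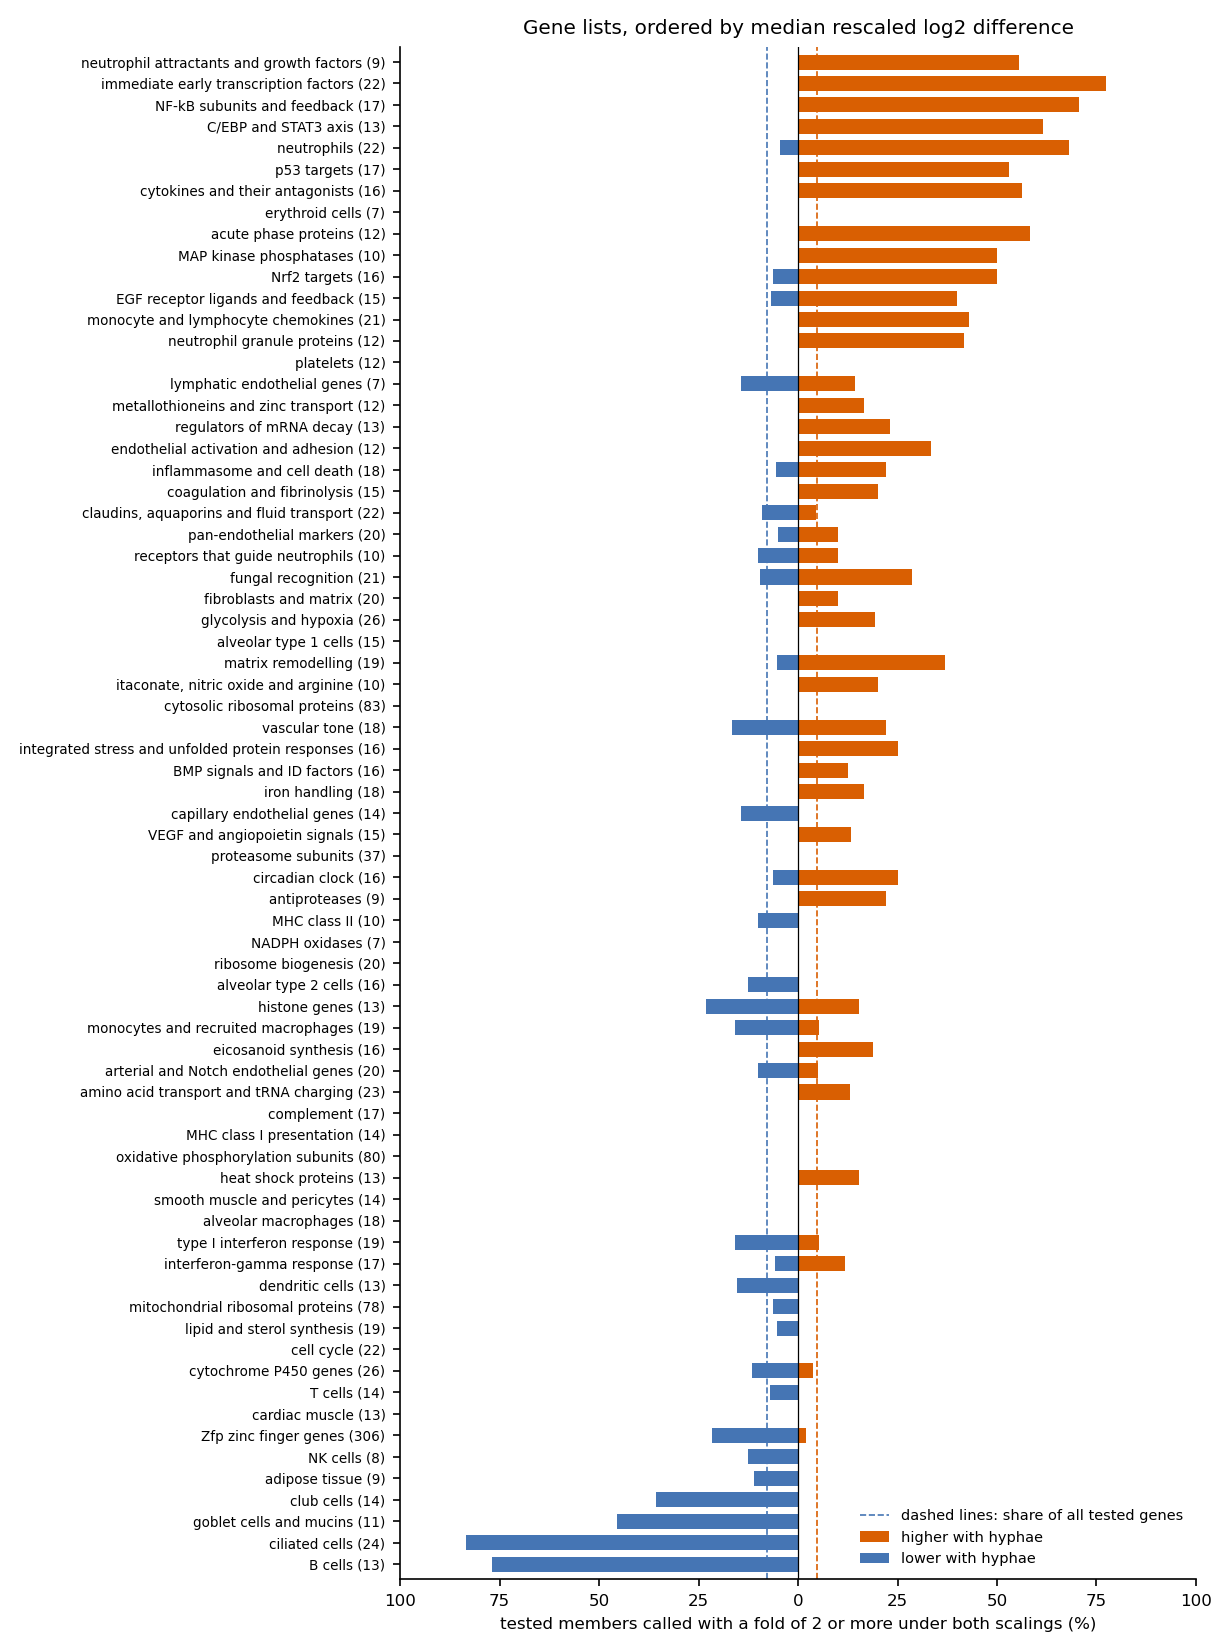
Share of tested members that rose (right, percent) or fell (left, percent) under both scalings for each gene list with 7 or more tested members, ordered by the rescaled median difference. Dashed lines mark the shares over all tested genes, 4.83% and 7.9%. Immediate early factors (17 of 22), NF-kB genes (12 of 17) and neutrophil markers (15 of 22) stand on the right, and ciliated cell (20 of 24) and B cell genes (10 of 13) on the left.

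Among the chemokines that recruit neutrophils, every ligand of the receptor CXCR2 that rose lay above all controls in all 3 hyphae libraries. Of 9 attractants and growth factors, all tested, 5 rose and none fell, and their median difference was 2.45 (2.68 rescaled), against -0.373 (0) over all genes. Cxcl3, whose promoter is shown above, was at 0.55, 0.21 and 0.94 FPKM in the control libraries and at 6.44, 56.2 and 139.8 FPKM in the hyphae libraries, a log2 difference of 4.67 ± 0.99 (SE, adjusted p = 0.0061). Its lowest hyphae value, in replicate 1, was still above the highest control value. Cxcl5, an attractant made largely by epithelium, went from 0.58, 0.1 and 0.42 to 4.2, 10.4 and 5.73 FPKM, a difference of 2.45 ± 0.30 (SE, adjusted p = 0.00068), with no overlap. Its neighbours Cxcl1 and Cxcl2 reached far higher levels in hyphae, 97.5, 178 and 419.96 FPKM and 150.3, 654 and 1648 FPKM, from control values of at most 2.33 FPKM. Csf3, the growth factor G-CSF that drives neutrophil production in the marrow, was at 0.1, 0.12 and 0.08 FPKM in control and 14.6, 44.8 and 80.4 FPKM in hyphae, a difference of 5.14 ± 0.54 (SE, adjusted p = 0.00044). The growth factors Csf1 and Csf2 (M-CSF and GM-CSF) did not pass the test: Csf2 was at 2.94, 4.48 and 3.19 FPKM in control and at 1.67, 14.2 and 20.8 FPKM in hyphae (adjusted p = 0.23), with hyphae replicate 1 below the controls. Csf2 rose by the rule only when that library was left out.

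Chemokines for monocytes and lymphocytes rose in 9 of 21 tested members and fell in none, with a median difference of 0.75 (1.14 rescaled). Ccl3 and Ccl4, attractants of monocytes and T cells, went from 1.3, 1.33 and 1.36 to 14.2, 83.02 and 202 FPKM and from 1.49, 1.77 and 0.58 to 7.91, 38.2 and 109.6 FPKM, differences of 4.78 ± 0.86 (SE, adjusted p = 0.0031) and 3.93 ± 0.84 (SE, adjusted p = 0.0064). For both, hyphae replicate 1 was the lowest and replicate 3 the highest of the group, and neither overlapped the controls. Ccl20, which attracts CCR6-bearing cells, was more even, at 2.43, 0.21 and 2.77 FPKM in control and 34.04, 30.2 and 44.9 FPKM in hyphae (3.88 ± 0.43 (SE, adjusted p = 0.0005)). Cxcl10, a CXCR3 ligand, went from 5.12, 3.76 and 3.8 to 30.1, 49.3 and 171 FPKM (3.64 ± 0.58 (SE, adjusted p = 0.002)). Cxcl9, the related interferon-gamma-induced ligand, stayed between 0.41 and 3.05 FPKM in all 6 libraries (adjusted p = 0.5). Ccl11, an eosinophil attractant, went from 6.05, 3.86 and 3 to 10.9, 13.9 and 23.6 FPKM (1.66 ± 0.31 (SE, adjusted p = 0.0034)) and was also higher than after conidia (4.34, 6.41 and 2.41 FPKM), by 1.67 ± 0.35 (SE, adjusted p = 0.004). Without control replicate 1 the count for this list was 6 of 21.

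Proinflammatory cytokines rose in 9 of 16 tested members (6 without control replicate 1), and none fell. Tnf was at 0.57, 0.49 and 0.64 FPKM in control and 11.4, 33.3 and 38.4 FPKM in hyphae, a difference of 4.03 ± 0.41 (SE, adjusted p = 0.00041). Il6, which drives the hepatic acute phase and STAT3 signalling, went from 0.94, 0.33 and 0.15 to 13.2, 19.3 and 71.2 FPKM (4.26 ± 0.58 (SE, adjusted p = 0.00098)). Both were low in every control and separate from them in every hyphae library. Lif, of the same family as Il6, went from 2.69, 2.24 and 1.33 to 5.93, 10.8 and 14.4 FPKM (1.84 ± 0.31 (SE, adjusted p = 0.0024)). Il1b was at 10.7, 9.04 and 6.53 FPKM in control and at 16.2, 90.7 and 216 FPKM in hyphae (2.87 ± 0.85 (SE, adjusted p = 0.022)). Its hyphae replicate 1 was close to the controls, and the call was lost when any 1 of control replicates 1, 2 and 3 or hyphae replicate 2 was left out; the same held for Osm (oncostatin M, 3.19 ± 0.96). Il1rn, the natural antagonist of the interleukin 1 receptor, was at 2.07, 1.85 and 2.73 FPKM in control and only 2.47, 7.45 and 8.93 FPKM in hyphae (1.05 ± 0.38 (SE, adjusted p = 0.046)), against 149, 23.4 and 47.4 FPKM after conidia. That contrast with conidia was -3.08 ± 0.62 (SE, adjusted p = 0.003), while Il1b itself did not pass the test between the 2 inocula (-0.77 ± 0.88 (SE, adjusted p = 0.48)). Leaving out any library but hyphae replicate 1 ended the Il1rn call against control. Il17a, Ifng and Ifnb1 did not reach the level for testing: Il17a was at 0.05, 0 and 0 FPKM in control and 0.09, 0.27 and 4.74 FPKM in hyphae.

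Neutrophil transcripts were higher in all 3 hyphae libraries. Of 22 neutrophil markers, all tested, 15 rose and 1 fell, with a median difference of 1.64 (2.04 rescaled), and their summed level was 249.9 to 339.8 FPKM in control and 856.8, 2145.5 and 5760.3 FPKM in hyphae replicates 1, 2 and 3. S100a8 and S100a9, the 2 chains of calprotectin, went from 17.5, 31.7 and 42.1 to 203, 558 and 1918 FPKM and from 17.8, 38.6 and 46.8 to 236, 686 and 2073 FPKM, differences of 4.35 ± 0.78 (SE, adjusted p = 0.0032) and 4.40 ± 0.77 (SE, adjusted p = 0.0029). Retnlg, a resistin-like protein of mouse neutrophils, went from 7.63, 12.2 and 15.4 to 128, 350.2 and 850.2 FPKM (4.77 ± 0.65 (SE, adjusted p = 0.0011)). For all 3 genes hyphae replicate 1 was the lowest and replicate 3 the highest of a wide range, with no overlap with control. Ly6g, the surface antigen used to define mouse neutrophils, was at lower levels, 0, 0.24 and 0.49 FPKM in control (0 as listed in replicate 1) and 1.97, 5.02 and 20.03 FPKM in hyphae, and its call was lost without control replicate 1. Without that library 9 of the 22 markers rose.

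Granule proteins of different stages of neutrophil maturation differed in level. The primary granule genes Mpo, Elane, Prtn3 and Ctsg did not reach the level for testing: Mpo stayed at or under 0.17 FPKM and Elane at or under 0.25 FPKM in all 6 libraries. Of the other 12 granule genes 5 rose and none fell. Camp, the cathelicidin of secondary granules, was at 0.68, 0.75 and 1.29 FPKM in control and 7.39, 35.3 and 206 FPKM in hyphae, a difference of 4.40 ± 1.04 (SE, adjusted p = 0.0096). It was at 1.44, 1.83 and 2.4 FPKM after conidia, all under the lowest hyphae value, and the difference of hyphae from conidia was 3.80 ± 0.92 (SE, adjusted p = 0.0076). Ngp, another secondary granule protein, was likewise higher than after conidia, by 2.91 ± 1.02 (SE, adjusted p = 0.038), a call that was lost without conidia replicate 2, hyphae replicate 2 or hyphae replicate 3. Mmp8, the neutrophil collagenase, went from 0.7, 1.29 and 1.16 to 16.5, 22.8 and 64.5 FPKM (3.89 ± 0.46 (SE, adjusted p = 0.00062)) and Lcn2, the siderophore-binding lipocalin, from 177, 125 and 217 to 723, 2293 and 2356 FPKM (3.22 ± 0.47 (SE, adjusted p = 0.0013)). Unlike Camp and Mmp8, at most 1.29 FPKM in control, Lcn2 was already at 125 FPKM or more in every control. Which cells made it was not tested. Ltf (lactoferrin), which airway glands also make, overlapped, at 63.7, 19.5 and 19.8 FPKM in control and 15.3, 23.04 and 101 FPKM in hyphae (adjusted p = 0.85).

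The receptors that guide neutrophils did not move with the granule and calprotectin genes. Of 10 tested, 1 rose (Trem1, an amplifier of inflammatory signals, 2.93 ± 0.69) and 1 fell, and 3 rose without hyphae replicate 1. Csf3r, the receptor of G-CSF, was at 17.3, 24.5 and 17.5 FPKM in control and 12.03, 25.9 and 44.1 FPKM in hyphae, with overlap, a difference of 0.29 ± 0.42 (SE, adjusted p = 0.57). It was at 103, 88.5 and 108 FPKM after conidia, so hyphae lay below conidia by -2.002 ± 0.38 (SE, adjusted p = 0.0022), or -1.68 (adjusted p = 0.0094) after rescaling. Fpr1, a receptor for bacterial and mitochondrial formyl peptides, was at 3.18, 3.6 and 4.51 FPKM in control and 0.81, 3.74 and 7.98 FPKM in hyphae, and its contrast with conidia was -2.07 ± 0.63 (SE, adjusted p = 0.022), not passing after rescaling (adjusted p = 0.056), nor without conidia replicate 1, hyphae replicate 1 or hyphae replicate 2. Cxcr2, the receptor of the Cxcl chemokines, was at 5.43, 7.38 and 5.9 FPKM in control and 6.5, 15.1 and 25.3 FPKM in hyphae (adjusted p = 0.066), and it too rose only without hyphae replicate 1. Cxcr4, which holds neutrophils in the marrow and is also on lymphocytes and endothelium, fell from 40.6, 43.1 and 43.2 to 5.86, 14.7 and 13.8 FPKM (-1.89 ± 0.30 (SE, adjusted p = 0.0019)). The fall of G0s2, a regulator of lipid breakdown found in fat as well as neutrophils, from 50.2, 61.8 and 61.7 to 13.98, 14.6 and 26.1 FPKM was the only one among the 22 neutrophil markers. None of the 7 NADPH oxidase genes tested rose or fell: Cybb, the catalytic subunit of the phagocyte oxidase, was at 10.3, 13.3 and 9.35 FPKM in control and 4.9, 11.5 and 12.2 FPKM in hyphae (adjusted p = 0.49).

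**Figure D3:**
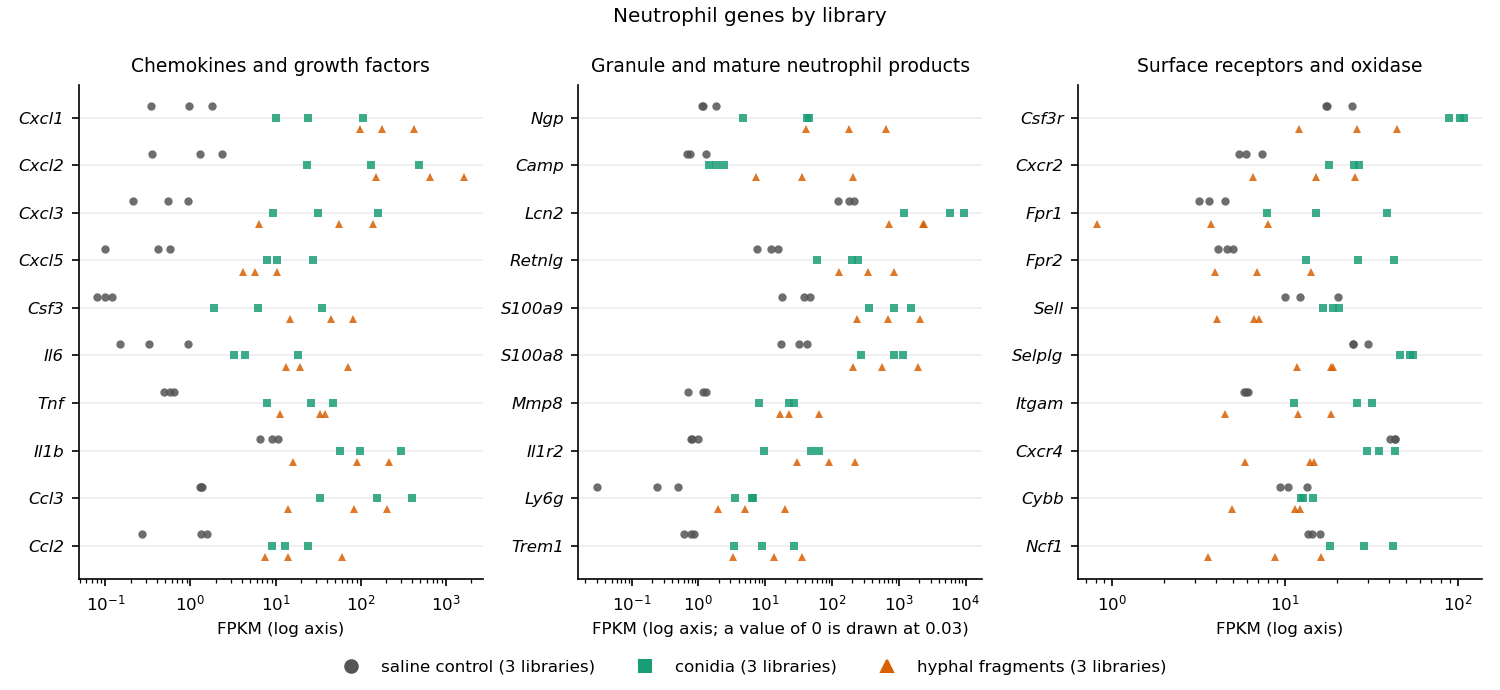
FPKM in each library (log axis) of neutrophil chemokines, of granule and mature neutrophil products, and of neutrophil receptors and oxidase subunits, with 3 control, 3 conidia and 3 hyphae libraries as points. Hyphae points lie right of all control points for Cxcl3, Camp and S100a9, and on both sides of them for Csf3r, for which all conidia points lie further right, at 88.5 to 108 FPKM.

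Genes of fungal recognition moved in different directions, among sensors and signalling proteins alike. Of 21 tested, 6 rose and 2 fell. Clec7a, which encodes Dectin-1, was at 9.5, 13.6 and 13.3 FPKM in control and 3.65, 11.5 and 14.6 FPKM in hyphae, with overlap (difference -0.43 ± 0.43 (SE, adjusted p = 0.42)). Card9, its adaptor, was at 7.65, 8.98 and 7.75 and 5.44, 7.97 and 8.95 FPKM (adjusted p = 0.53). In contrast the C-type lectins Clec4d (Dectin-3) and Clec4e (Mincle) rose, from 2.22, 1.66 and 2.19 to 5.8, 16.9 and 37.4 FPKM (2.47 ± 0.56 (SE, adjusted p = 0.0076)) and from 1.3, 1.1 and 0.92 to 3.71, 10.9 and 22.1 FPKM (2.38 ± 0.52 (SE, adjusted p = 0.0065)). Both sit on neutrophils as well as on macrophages. Tlr2 rose from 5.24, 4.3 and 5.26 to 14.4, 45.2 and 63.2 FPKM (2.60 ± 0.48 (SE, adjusted p = 0.0034)), whereas Tlr4 was lower in hyphae, 3.56, 3.43 and 3.73 against 1.55, 1.44 and 1.55 FPKM, by less than 2-fold (-0.86 ± 0.10 (SE, adjusted p = 0.00059)). Malt1 and Bcl10, the partners of CARD9, rose, Malt1 from 8, 8.62 and 7.69 to 16.7, 46.6 and 40.8 FPKM (1.85 ± 0.35 (SE, adjusted p = 0.0036)). Ptx3, a soluble pattern recognition protein that binds Aspergillus conidia, went from 0.38, 0.78 and 0.3 to 5.51, 7.06 and 30.5 FPKM (3.01 ± 0.56 (SE, adjusted p = 0.0034)). Clec1a, which encodes the receptor MelLec that recognises the melanin of conidia, fell from 17.4, 20.9 and 27.5 to 6.51, 5 and 4.68 FPKM (-1.83 ± 0.19 (SE, adjusted p = 0.00041)). After conidia it was at 36.4, 31.6 and 34.3 FPKM, all above every control, and hyphae lay below conidia by -2.46 ± 0.17 (SE, adjusted p = 3.2e-05).

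Transcription factors and feedback regulators of the early response rose in most members. Of 22 immediate early factors 17 rose and none fell, and of 17 NF-kB genes tested 12 rose and none fell. Fosl1, an AP-1 subunit, was nearly silent in control at 0.18, 0.1 and 0.11 FPKM and reached 8.4, 31.1 and 47.8 FPKM in hyphae, a difference of 4.44 ± 0.55 (SE, adjusted p = 0.00074). It was at 3.22, 0.33 and 0.55 FPKM after conidia, below every hyphae value, a contrast of 3.57 ± 0.60 (SE, adjusted p = 0.0013). Klf6, a zinc finger factor, had little spread: it was at 55.5, 59.5 and 64.4 FPKM in control, 85.3, 62.1 and 76.7 FPKM after conidia and 255, 349.6 and 389 FPKM in hyphae, so that hyphae rose over control by 2.43 ± 0.17 (SE, adjusted p = 0.00019) and over conidia by 2.12 ± 0.17 (SE, adjusted p = 5.2e-05). Rel, the NF-kB subunit c-Rel, went from 1.05, 1.47 and 1.53 to 6.99, 13.1 and 17.4 FPKM (2.45 ± 0.30 (SE, adjusted p = 0.00067)) and was also higher than after conidia (2.20 ± 0.29 (SE, adjusted p = 0.00042)). Nfkbiz and Bcl3, nuclear IκB proteins that steer NF-kB on its targets, went from 15.02, 16.5 and 9.25 to 55.5, 98.7 and 181 FPKM and from 13.4, 17.4 and 12.3 to 63.7, 116 and 149 FPKM (2.83 ± 0.42 and 2.78 ± 0.30, SE). Among the immediate early genes that did not pass were Egr2 and Egr3, and all 3 Nr4a genes. Egr3 was at 2.79, 1.22 and 2.24 FPKM in control and 0.33, 0.91 and 2.31 FPKM in hyphae (adjusted p = 0.2).

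Inhibitors that shorten cytokine mRNA life rose strongly in 2 cases. Zfp36, which encodes tristetraprolin, was at 158, 142 and 119.8 FPKM in control and 589.95, 1333 and 2002 FPKM in hyphae, a difference of 3.05 ± 0.41 (SE, adjusted p = 0.00097). Zc3h12a, the RNase Regnase-1, went from 6.78, 6.08 and 7.06 to 53.7, 94.7 and 95.9 FPKM (3.39 ± 0.22 (SE, adjusted p = 0.00019)). Both rose over conidia too, by 2.64 ± 0.41 (SE, adjusted p = 0.00092) and 1.67 ± 0.37 (SE, adjusted p = 0.0049). The close relatives of tristetraprolin did not follow: Zfp36l1 was at 191, 181 and 146 FPKM and 187, 199 and 246 FPKM (difference 0.29 ± 0.15 (SE, adjusted p = 0.13)). Of 13 regulators of mRNA decay 3 rose and none fell.

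Of 13 tested members of the C/EBP and STAT3 list 8 rose and none fell. Only transcripts were measured, so signalling by interleukin 6 family receptors was not tested. Cebpd, a factor of the acute phase, went from 69.3, 57.8 and 63.1 to 274, 341 and 434 FPKM (2.42 ± 0.18 (SE, adjusted p = 0.0002)) and Pim1, a kinase induced by STAT3, from 18.3, 16.7 and 11.6 to 77.9, 149 and 222 FPKM (3.09 ± 0.37 (SE, adjusted p = 0.00065)). Neither overlapped the controls. Stat3 itself was higher by less than 2-fold (0.79 ± 0.10 (SE, adjusted p = 0.0008)). Of 10 MAP kinase phosphatases 5 rose, 3 without hyphae replicate 2. Dusp8, which acts on stress-activated kinases, was at 6.71, 9.86 and 6.94 FPKM in control, 7.91, 5.8 and 6.62 FPKM after conidia and 23.8, 30.1 and 30.5 FPKM in hyphae, higher than control by 1.73 ± 0.17 (SE, adjusted p = 0.00035) and than conidia by 1.91 ± 0.17 (SE, adjusted p = 7.1e-05). Transcripts of proteins that feed back on the EGF receptor rose in the same libraries. Errfi1 (MIG6), which binds and inhibits the receptor, went from 62.3, 53.8 and 90.7 to 279, 467 and 478 FPKM (2.54 ± 0.27 (SE, adjusted p = 0.00044)) and Spry4 from 5.91, 9.51 and 7.37 to 26.3, 46.5 and 45.9 FPKM (2.22 ± 0.25 (SE, adjusted p = 0.00056)). Of the 15 genes on that list 6 rose and 1 fell. Of the receptor's ligands Hbegf and Ereg rose and Areg did not pass (0.45 ± 0.24, SE, adjusted p = 0.14). Btc (betacellulin), another ligand, was the 1 that fell, from 4.12, 3.28 and 1.94 to 1.24, 0.52 and 0.4 FPKM (-1.25 ± 0.26 (SE, adjusted p = 0.0051)), a call lost without control replicate 1 or 2 or hyphae replicate 2 or 3. Hbegf lost its call without control replicate 1, hyphae replicate 2 or hyphae replicate 3.

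Metal handling changed in a few genes. Both metallothioneins rose: Mt1 was at 208, 106 and 159 FPKM in control, 1225, 279 and 927 FPKM after conidia and 1535, 2085 and 3661 FPKM in hyphae, every hyphae value above every other, with differences of 3.89 ± 0.36 (SE, adjusted p = 0.00031) from control and 1.73 ± 0.54 (SE, adjusted p = 0.024) from conidia. The contrast with conidia was lost without conidia replicate 2, hyphae replicate 2 or hyphae replicate 3. None of the other 10 tested members of the list, mostly zinc transporters, rose or fell. Slc39a8, a zinc and manganese importer, was at 69.7, 119 and 103 FPKM in control and 138, 139 and 129 FPKM in hyphae (0.51 ± 0.19 (SE, adjusted p = 0.054)). Mtf1, the zinc sensor that binds metal response elements, was at 4.02, 4.75 and 4.42 FPKM in control and 2.43, 1.77 and 1.82 FPKM in hyphae, lower by less than 2-fold (-0.85 ± 0.13 (SE, adjusted p = 0.0016)). Iron genes rose in 3 of 18 (Lcn2, Hmox1 and Steap4). Hmox1, heme oxygenase 1, went from 34.3, 25.96 and 34.1 to 56.1, 148 and 134 FPKM (1.70 ± 0.36 (SE, adjusted p = 0.0055)).

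Acute phase genes rose in 7 of 12 tested members and fell in none (4 of 12 without hyphae replicate 1). Several were far below their level after conidia. Saa3, a serum amyloid made in lung, was at 23.9, 3.19 and 17.9 FPKM in control, 47.6, 45.1 and 89.2 FPKM in hyphae and 2722, 503 and 1109.6 FPKM after conidia. Its difference from control was 2.23 ± 0.67 (SE, adjusted p = 0.024), lost without hyphae replicate 1 or 3, and its difference from conidia -4.29 ± 0.75 (SE, adjusted p = 0.0016). Orm1 (orosomucoid) was at 8.56, 0.95 and 6.79 FPKM in control and 5.17, 3.16 and 11.1 FPKM in hyphae, with overlap (adjusted p = 0.65), against 266, 47.3 and 143 FPKM after conidia (-4.18 ± 0.76 (SE, adjusted p = 0.0019)). Outside the list, Timp1, an inhibitor of metalloproteinases, was at 19.9, 11.9 and 11.6 FPKM in control, 16.2, 16.1 and 21.8 FPKM in hyphae and 281, 98.7 and 120.4 FPKM after conidia, a contrast after rescaling of -2.68 (adjusted p = 0.00091). Chil1, a chitinase-like protein, overlapped control, at 591, 665 and 563 FPKM in hyphae and 567, 564 and 627 FPKM in control, and lay below conidia (2332, 1259.9 and 1576 FPKM) by -1.46 ± 0.20 (SE, adjusted p = 0.00044). Serpina3n, an antiprotease, rose over control by 1.05 ± 0.20 (SE) and lay below conidia by -1.79 ± 0.38 (SE, adjusted p = 0.0042). Its call against control was lost without control replicate 2 or hyphae replicate 1. All 5 contrasts with conidia also passed after rescaling, from -3.96 for Saa3 to -1.13 for Chil1.

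Stress genes rose in part. Of 16 genes of the Nrf2 list, which covers antioxidant defence, 8 rose and 1 fell. Gclc, the catalytic subunit of glutathione synthesis, was at 108, 89.2 and 107 FPKM in control and 407, 435 and 433 FPKM in hyphae, a difference of 2.06 ± 0.11 (SE, adjusted p = 0.00014). Its values within each group were close and the groups well apart. Txnrd1, thioredoxin reductase, went from 28.7, 25.1 and 30.6 to 102, 160.3 and 169.7 FPKM (2.29 ± 0.20 (SE, adjusted p = 0.00027)). Nqo1 and Gclm, which are also classical Nrf2 targets, did not pass: Nqo1 was at 12.3, 4.79 and 11.2 FPKM in control and 10.7, 5.86 and 5.44 FPKM in hyphae (adjusted p = 0.52). The 1 gene that fell was Nfe2l2, which encodes Nrf2 itself, from 99.3, 90.9 and 102 to 31.2, 30.5 and 36.3 FPKM (-1.55 ± 0.10 (SE, adjusted p = 0.00019)), and it lay below conidia (107, 95.9 and 101 FPKM) by -1.61 ± 0.10 (SE, adjusted p = 2.6e-05).

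Targets of p53 were likewise divided. Of 17 targets 9 rose and none fell. Gdf15, a cytokine of the stress response, was at 2.45, 1.61 and 2.37 FPKM in control and 21.6, 124 and 179 FPKM in hyphae (4.68 ± 0.73 (SE, adjusted p = 0.0018)), and at 7.19, 4.92 and 5.86 FPKM after conidia, below every hyphae library (3.52 ± 0.64 (SE, adjusted p = 0.0019)). Sesn1, which restrains mTORC1, was at 20.7, 17.6 and 20.2 FPKM in control, 15.5, 19.5 and 18.1 FPKM after conidia and 95.3, 149 and 92.7 FPKM in hyphae, so that only hyphae stood apart, by 2.43 ± 0.19 (SE, adjusted p = 0.00023) from control and 2.57 ± 0.18 (SE, adjusted p = 3.3e-05) from conidia. Genes of cell death differed. Pmaip1 (NOXA), a BH3-only protein that promotes apoptosis, rose from 3.26, 3.48 and 4.18 to 16.7, 19.1 and 24.5 FPKM (2.17 ± 0.16 (SE, adjusted p = 0.0002)), while Bax and Bbc3 (PUMA) did not pass: Bax was at 61.9, 55.8 and 59.5 FPKM in control and 52.5, 53.4 and 52 FPKM in hyphae (adjusted p = 0.13). Trp53, which encodes p53, was lower, 32.04, 30.7 and 35.3 against 14.3, 10.9 and 10.7 FPKM, with a difference of -1.39 ± 0.13 (SE, adjusted p = 0.00031) that shrank to -0.98 (adjusted p = 0.00067) after rescaling and so just missed a 2-fold change there. Of 16 genes of the integrated stress and unfolded protein responses 4 rose, among them Ppp1r15a (GADD34), which reverses eIF2α phosphorylation, from 31.5, 25.6 and 29.4 to 99.04, 155 and 244 FPKM (2.39 ± 0.30 (SE, adjusted p = 0.00077)). Ddit3 (CHOP) and Trib3 did not rise, and Ddit3 was at 16.4, 18.96 and 20.5 FPKM in control and 12.5, 11.7 and 13.99 FPKM in hyphae. Of 13 heat shock genes 2 rose, Hspb1 (HSP27, 2.59 ± 0.24) and Bag3 (1.45 ± 0.11), while the inducible Hsp70 gene Hspa1a was at 7.14, 4.61 and 6.08 FPKM in control and 2.74, 2.94 and 3.14 FPKM in hyphae.

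Glycolysis and hypoxia genes rose in 5 of 26 and fell in none. Hif1a went from 17.2, 18.01 and 20.03 to 46.7, 75.2 and 80.6 FPKM (1.78 ± 0.20 (SE, adjusted p = 0.00057)) and Hk2, the inducible hexokinase, from 7.09, 3.2 and 3.99 to 22.2, 27.5 and 37.4 FPKM (2.41 ± 0.28 (SE, adjusted p = 0.00059)). Ldha and Vegfa, which HIF-1 activates in many cells, did not rise. Vegfa, abundant in alveolar epithelium, was at 294, 389 and 331 FPKM in control and 204, 184 and 177 FPKM in hyphae (difference -0.83 ± 0.13 (SE, adjusted p = 0.0016)). Clock genes rose in 4 of 16 and fell in 1 (2 without control replicate 2). Per1 was at 42.8, 15.6 and 52.1 FPKM in control and 247, 273 and 237 FPKM in hyphae (2.91 ± 0.41 (SE, adjusted p = 0.0011)), Cry2 at 22.4, 16.9 and 22.4 and 81.8, 84.6 and 68.99 FPKM (1.89 ± 0.14 (SE, adjusted p = 0.00021)). Dbp, a clock output, fell from 175, 76.1 and 181 to 43.4, 25.7 and 33.9 FPKM (-1.97 ± 0.36 (SE, adjusted p = 0.0031)). Control replicate 2 stood apart on this list, with the lowest Per1 and Dbp and the highest Arntl of the controls (1.77, 5.18 and 0.96 FPKM). The labels give no hour of day.

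Interferon genes did not rise as a group. Of 19 type I interferon genes tested 1 rose and 3 fell, and of 17 interferon-gamma genes 2 rose and 1 fell. The first count of rises was 3 without hyphae replicate 1, and the last of falls was 2 without control replicate 1 or hyphae replicate 2 and 3 without hyphae replicate 3. Irgm2, an interferon-inducible GTPase, fell from 11.7, 15.2 and 14.4 to 2.58, 3.28 and 2.9 FPKM (-1.91 ± 0.13 (SE, adjusted p = 0.00019)) and Oasl2 from 33, 36.7 and 33.1 to 7.81, 9.33 and 11.3 FPKM (-1.76 ± 0.14 (SE, adjusted p = 0.00022)). Oasl1 in contrast rose (1.45 ± 0.36, SE), as did Irf1 from 36.8, 47.1 and 44.5 to 80.9, 103 and 193 FPKM (1.44 ± 0.30 (SE, adjusted p = 0.0055)). Ifit1 was at 6.38, 7.48 and 7.85 FPKM in control and 7.62, 13.97 and 28.5 FPKM in hyphae (adjusted p = 0.081), and passed only without hyphae replicate 1. MHC class II genes were nearly level apart from H2-Ob, found mainly in B cells, which fell: Cd74, the invariant chain, was at 843, 1010.01 and 909 FPKM in control and 944, 1552 and 1099.6 FPKM in hyphae (adjusted p = 0.14). Ciita, their transactivator, was at 3.22, 4.59 and 3.61 and 0.71, 1.15 and 1.16 FPKM (-1.26 ± 0.16 (SE, adjusted p = 0.00075)), below 2-fold after rescaling (-0.98), past it without control replicate 1, hyphae replicate 2 or hyphae replicate 3. H2-Ob lost its call without control replicate 1 or 2 or hyphae replicate 1.

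B cell markers fell in 10 of the 13 tested (of 14 listed), with a median difference of -1.67 (-1.38 rescaled) and a summed level of 125 to 223.8 FPKM in control and 26.7 to 69.7 FPKM in hyphae. The B cell count ran from 7, without control replicate 2, to 12 when 1 library was left out. It was 8 with the replicate number as a block. Ms4a1, which encodes CD20, was at 11.5, 10.8 and 5.69 FPKM in control and 0.28, 0.64 and 0.58 FPKM in hyphae, a difference of -2.74 ± 0.26 (SE, adjusted p = 0.00032). Fcmr, the receptor for IgM, went from 12.2, 17.1 and 10.8 to 0.71, 1.85 and 2.6 FPKM (-2.44 ± 0.29 (SE, adjusted p = 0.00067)). B cell genes were uneven after conidia, where Ms4a1 was at 1.95, 9.72 and 1.88 FPKM. T cell markers fell in 1 of 14 tested (Il7r, 4.61, 4.99 and 3.45 to 0.59, 0.32 and 0.47 FPKM, -1.87 ± 0.15 (SE, adjusted p = 0.00023)) and NK cell markers in 1 of 8 (Klrd1, -1.63 ± 0.17). These counts were sensitive to single libraries: T cell markers fell in 3 without control replicate 3 or hyphae replicate 3 and in 2 without hyphae replicate 2, and NK cell markers in 4, 3 and 2 without the same libraries. With a pseudocount of 0.1 they were 6 and 3. At an adjusted p under 0.05 alone, 9 of the 14 T cell markers were lower as deposited and 6 after rescaling. Of all genes tested 49.8% and 28.6% were. Cd3e, of the T cell receptor complex, was at 2.69, 3.99 and 2.3 FPKM in control and 1.11, 0.81 and 1.22 FPKM in hyphae, lower by less than 2-fold (-0.95 ± 0.18 (SE, adjusted p = 0.0036)).

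Monocyte genes moved apart from one another. Ccr2, the receptor that brings inflammatory monocytes out of the marrow, fell from 10.9, 17.3 and 9.14 to 1.01, 1.32 and 1.14 FPKM, a difference of -2.60 ± 0.22 (SE, adjusted p = 0.00025), while its ligand Ccl2 rose from 1.35, 1.57 and 0.27 to 7.56, 14.1 and 59.9 FPKM (3.33 ± 0.70 (SE, adjusted p = 0.0058)). After conidia Ccr2 was at 12.2, 19.6 and 29.5 FPKM, so that hyphae lay below conidia by -3.23 ± 0.30 (SE, adjusted p = 9.7e-05). Cx3cr1, the fractalkine receptor of patrolling monocytes and other myeloid cells, fell from 4.34, 6.96 and 3.93 to 0.14, 0.17 and 0.22 FPKM (-2.34 ± 0.19 (SE, adjusted p = 0.00023)), and Ms4a4c from 4.17, 8.38 and 3.25 to 0.79, 0.86 and 0.57 FPKM (-1.77 ± 0.28 (SE, adjusted p = 0.0019)). All 3 were low in every hyphae library without overlap. Cd14, the lipopolysaccharide coreceptor, rose from 35.9, 22.3 and 31 to 56.2, 108 and 163 FPKM (1.74 ± 0.38 (SE, adjusted p = 0.0063)), the 1 rise among 19 monocyte genes tested. The count of rises was 4 without hyphae replicate 1 and 2 without control replicate 1. Dendritic cell markers fell in 2 of 13, Clec9a of cross-presenting cells (9.51, 10.5 and 13.4 to 3.07, 2.49 and 2.83 FPKM, -1.67 ± 0.15 (SE, adjusted p = 0.00027)) and Cd209a (-1.91 ± 0.13, SE). None of 18 alveolar macrophage markers rose or fell, and Marco, their scavenger receptor, was at 12.7, 5.11 and 4.07 FPKM in control and 3.71, 6.33 and 2.46 FPKM in hyphae (adjusted p = 0.24).

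Endothelial genes changed in particular members. Of 20 pan-endothelial markers 2 rose (Flt1 and Robo4; 1 without hyphae replicate 3, where Robo4 lost its call, and 4 without control replicate 3) and 1 fell. Cdh5 (VE-cadherin) was at 104, 193 and 214 FPKM in control and 286, 337 and 259.8 FPKM in hyphae, higher by less than 2-fold as deposited (0.84 ± 0.27 (SE, adjusted p = 0.03)) and by 1.27 after rescaling. Control replicate 1 was the lowest of the controls for Cdh5 and for Pecam1 (124, 193 and 193 FPKM). Without control replicate 3 Cdh5 rose by the rule. Gja5, the connexin of arterial endothelium, fell from 11.6, 17.96 and 13.9 to 0.4, 0.42 and 0.61 FPKM (-3.37 ± 0.17 (SE, adjusted p = 0.00014)). Sox18, a SOXF transcription factor of vessels, had the largest fall of all genes that passed both scalings, from 64.9, 103 and 67.1 to 1.94, 2.38 and 1.78 FPKM (-4.68 ± 0.19 (SE, adjusted p = 0.00014)), with conidia at 72.9, 91.3 and 124 FPKM. Sox17, a SOXF factor of arteries, was lower, 27.2, 30.4 and 29.5 against 12.9, 9.87 and 8.99 FPKM, by -1.39 ± 0.14 (SE, adjusted p = 0.00036) as deposited and -0.99 after rescaling, just under 2-fold, so that it fell by the rule without control replicate 1 or hyphae replicate 1. Sox7, the third SOXF factor, overlapped, at 14.5, 22.2 and 22.8 FPKM and 13.8, 16.2 and 24.4 FPKM (adjusted p = 0.65). The Notch ligands differed: Dll1 rose from 9.02, 11.1 and 9.99 to 26, 22.2 and 34.7 FPKM (1.36 ± 0.17 (SE, adjusted p = 0.00075)) while Dll4 was lower, 19.1, 23.9 and 25.7 against 8.96, 11.9 and 12.6 FPKM (-0.98 ± 0.16 (SE, adjusted p = 0.0021)). Over the 20 arterial and Notch genes 1 rose and 2 fell, shares near the background, and 4 fell without control replicate 1.

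The 2 receptors of VEGF on endothelium did not move together. Flt1 (VEGFR1), which also has a soluble form that traps VEGF, rose from 15.7, 21.2 and 30 to 80.1, 91.6 and 68.5 FPKM (1.83 ± 0.23 (SE, adjusted p = 0.00074)). Kdr (VEGFR2), the main signalling receptor, was at 38.3, 65.3 and 62.8 FPKM in control and 29.6, 32.4 and 27.6 FPKM in hyphae, lower as deposited (-0.84 ± 0.21 (SE, adjusted p = 0.01)) but not after rescaling (-0.42 (adjusted p = 0.15)). Lyve1, a hyaluronan receptor of lymphatic vessels that lung macrophages and capillaries also carry, rose from 78.6, 99.4 and 129 to 346, 445 and 301 FPKM (1.83 ± 0.22 (SE, adjusted p = 0.00062)). Foxf1, a transcription factor of lung mesenchyme and capillaries, rose from 86.6, 125 and 103 to 292, 313 and 219 FPKM (1.38 ± 0.18 (SE, adjusted p = 0.00094)). Ackr3, a scavenger receptor for CXCL12 and adrenomedullin, rose from 16.5, 19.6 and 22.8 to 133, 167 and 144 FPKM (2.86 ± 0.14 (SE, adjusted p = 0.00014)), with conidia at 28.1, 20.4 and 20.9 FPKM. Cxcl12 was itself lower in hyphae, 57.2, 65.04 and 66.5 against 30.02, 22.9 and 25.6 FPKM (-1.24 ± 0.12 (SE, adjusted p = 0.00037)), by less than 2-fold after rescaling (-0.82). Selp and Sele, the selectins on which leukocytes roll, rose from 1.09, 1.1 and 1.14 to 10.5, 20.3 and 38.2 FPKM (3.33 ± 0.40 (SE, adjusted p = 0.00066)) and from 0.43, 0.43 and 0.27 to 2.49, 4.73 and 15.2 FPKM (2.32 ± 0.51 (SE, adjusted p = 0.0066)). Icam1 rose (2.11 ± 0.34, SE) and Vcam1 did not pass (16.2, 21.9 and 15.4 FPKM in control and 16.6, 27.96 and 35.1 FPKM in hyphae).

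Peptides of vascular tone changed along with receptors for them. Of 18 genes on that list 4 rose (3 without control replicate 1) and 3 fell. Adm, the vasodilator adrenomedullin, was at 2.11, 4.82 and 2.35 FPKM in control, 26.6, 4.24 and 13.3 FPKM after conidia and 86.2, 154 and 329 FPKM in hyphae, a difference from control of 5.39 ± 0.48 (SE, adjusted p = 0.00028) and from conidia of 3.70 ± 0.63 (SE, adjusted p = 0.0014). Its receptor Calcrl fell from 107, 160.0 and 197 to 28.8, 29.2 and 19.9 FPKM (-2.50 ± 0.25 (SE, adjusted p = 0.00038)) and was at 180.4, 202 and 196 FPKM after conidia (-2.87 ± 0.22 (SE, adjusted p = 5e-05)). Of the proteins that give Calcrl its ligand choice, Ramp2 was level at 351, 392 and 461 FPKM and 349.6, 312 and 355 FPKM (adjusted p = 0.14) and Ramp3 rose from 2.58, 3.16 and 3.43 to 20.4, 24.8 and 24.3 FPKM (2.58 ± 0.13 (SE, adjusted p = 0.00014)). Ligand, receptor and accessory protein each lay apart from control with no overlap, Ramp2 excepted. Edn1, the vasoconstrictor endothelin 1, rose from 12.6, 10.9 and 25.5 to 97.4, 51.8 and 79.9 FPKM (2.20 ± 0.35 (SE, adjusted p = 0.0017)), while its receptors Ednra and Ednrb did not rise or fall. Apelin and its receptor fell: Aplnr went from 15.5, 22.3 and 21.5 to 2.59, 4.43 and 2.79 FPKM (-2.29 ± 0.20 (SE, adjusted p = 0.00028)) and Apln from 8.87, 16.1 and 20.2 to 3.21, 4.81 and 4.58 FPKM (-1.57 ± 0.29 (SE, adjusted p = 0.0031)), the latter call being lost without control replicate 2 or 3.

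**Figure D4:**
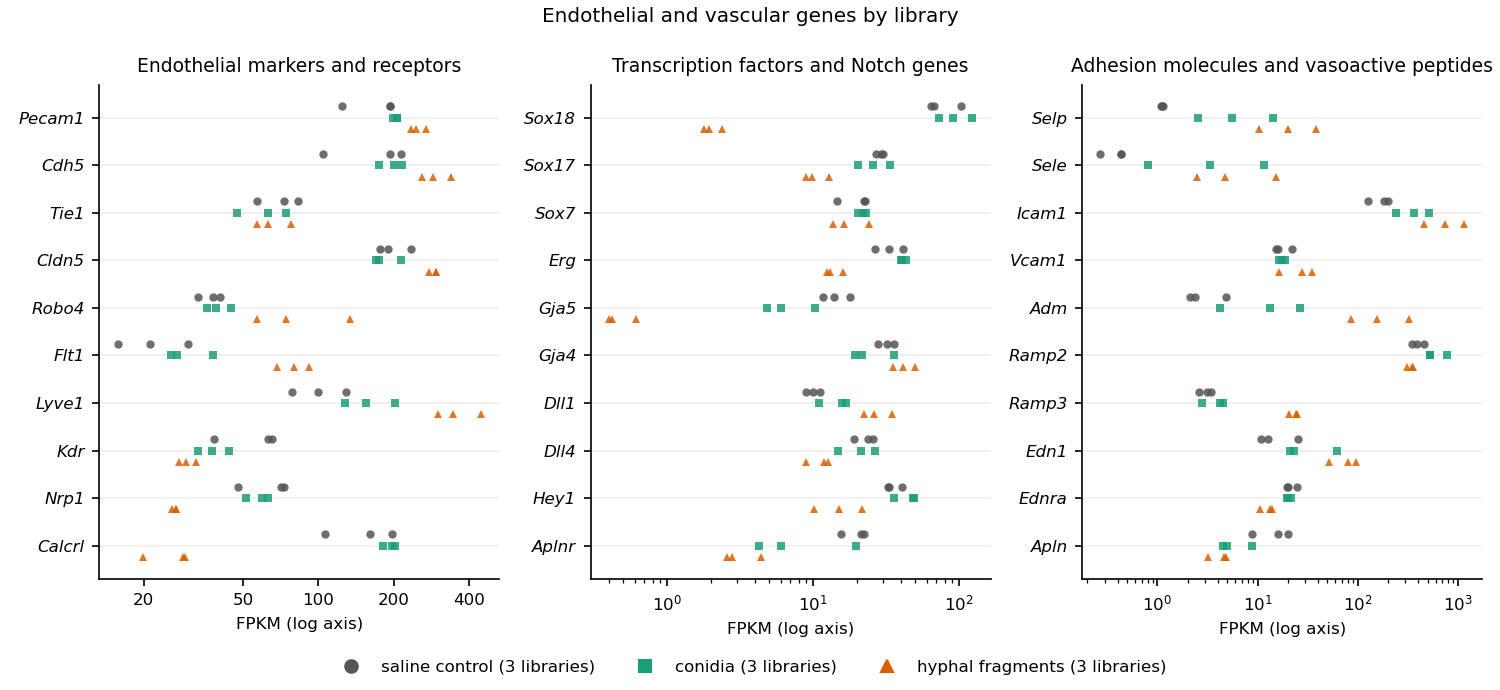
FPKM in each library (log axis) of general endothelial, arterial and signalling genes of vessels, in 3 panels, with control, conidia and hyphae libraries as points. Adm and Ramp3 lie right of the controls in all 3 hyphae libraries and Calcrl left of them, at 19.9 to 29.2 FPKM against 106.7 to 196.9 FPKM, while Ramp2 overlaps.

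Coagulation genes rose in 3 of 15 and fell in none. F3 (tissue factor), which starts clotting, rose from 61.2, 37.1 and 44.4 to 165, 172 and 200.2 FPKM (1.92 ± 0.19 (SE, adjusted p = 0.00036)). Plat, the tissue plasminogen activator, rose from 11.6, 12.3 and 13.7 to 79.1, 95.8 and 57 FPKM (2.51 ± 0.19 (SE, adjusted p = 0.00021)) and Plaur, the urokinase receptor, from 22.02, 24.1 and 24.5 to 74.2, 136 and 216 FPKM (2.41 ± 0.35 (SE, adjusted p = 0.0012)). Platelet markers did not reach 2-fold under both scalings in any of 12 genes, though 5 passed the test as higher as deposited and 9 after rescaling. Of all genes tested 14.8% and 29.6% passed as higher. By the rule 3 of the platelet markers rose without control replicate 3 and 2 without hyphae replicate 2.

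Airway epithelial genes fell, and those of ciliated cells most of all. Of 24 ciliated cell genes, all tested, 20 fell and none rose, with a median difference of -1.74 (-1.35 rescaled). Their summed level was 517.5 to 871.1 FPKM in control and 351.8, 132.1 and 123.9 FPKM in hyphae replicates 1, 2 and 3. Foxj1, the master regulator of motile cilia, was at 114, 83.02 and 62.5 FPKM in control and 41.03, 13.8 and 12.9 FPKM in hyphae (-2.05 ± 0.44 (SE, adjusted p = 0.0063)), with hyphae replicate 1 nearest to the controls. Sntn, of the ciliary tip, fell from 30.3, 19.8 and 18.9 to 7.73, 1.72 and 1.68 FPKM (-2.55 ± 0.47 (SE, adjusted p = 0.0031)), and Myb, which acts early in the making of multiciliated cells, from 17.99, 14.8 and 9.07 to 3.03, 1.01 and 0.86 FPKM (-2.55 ± 0.35 (SE, adjusted p = 0.0011)). Sox2, the transcription factor of airway as against alveolar epithelium, fell from 24.1, 15.9 and 13.96 to 2.84, 1.27 and 0.96 FPKM (-2.85 ± 0.30 (SE, adjusted p = 0.00042)). After conidia Sox2 was at 11.3, 17.2 and 15.98 FPKM, and hyphae lay below conidia by -2.60 ± 0.29 (SE, adjusted p = 0.00018). The count of ciliated genes depended on single libraries: it was 5 without control replicate 1, 5 without hyphae replicate 2, 10 without control replicate 2 and 9 without hyphae replicate 3. Foxj1 lost its call without control replicate 1 or hyphae replicate 2. How much airway each piece of lung held was not measured.

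Secretory cell genes of the airway fell in part. Of 14 club cell genes 5 fell and of 11 goblet cell and mucin genes tested 5 fell, and none rose in either list. Cyp2f2, a club cell cytochrome, fell from 3276, 3295 and 1846 to 1051, 652 and 426 FPKM (-2.03 ± 0.36 (SE, adjusted p = 0.003)), and Scgb3a2, a secretoglobin, from 2172, 3523 and 1161 to 910.4, 580.4 and 546 FPKM (-1.65 ± 0.40 (SE, adjusted p = 0.01)). After conidia they were at 557, 1208 and 888 FPKM and 171, 698 and 333 FPKM, and neither passed the test between the inocula (adjusted p = 0.48 and 0.16). Cckar, a cholecystokinin receptor on the club list, fell from 72.7, 45.5 and 49.8 to 26.7, 4.89 and 3.19 FPKM (-2.66 ± 0.67 (SE, adjusted p = 0.012)), but hyphae replicate 1 was far above its group and only leaving it out kept the call. Agr2, a chaperone of mucin secretion, fell from 26.2, 5.82 and 7.02 to 2.23, 0.78 and 1.99 FPKM (-2.14 ± 0.53 (SE, adjusted p = 0.011)) and was at 7.96, 25.9 and 22.1 FPKM after conidia, while Pigr, which carries IgA across epithelium, fell from 51.7, 24.9 and 30.01 to 18.99, 7.76 and 6.59 FPKM (-1.66 ± 0.41 (SE, adjusted p = 0.011)) and was at 127, 63.2 and 81.2 FPKM after conidia (-2.997 ± 0.42 (SE, adjusted p = 0.00051)). Agr2 was not called without hyphae replicate 1 or 2, and neither Pigr nor Scgb3a2 was called without control replicate 1, hyphae replicate 2 or hyphae replicate 3. Leaving out control replicate 3 also ended the call of Pigr, and leaving out control replicate 2 that of Scgb3a2. The club count was 2 without control replicate 1, control replicate 2 or hyphae replicate 2 and 3 without hyphae replicate 3. The goblet count was 2 without control replicate 1, 3 without control replicate 3 and 1 without hyphae replicate 2.

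Few alveolar epithelial genes changed by the rule. None of 15 alveolar type 1 genes rose or fell (1 fell without control replicate 1 or hyphae replicate 1), and Ager, their main marker, was at 975, 1535 and 1519.8 FPKM in control and 1722, 1587 and 1480.4 FPKM in hyphae (adjusted p = 0.23). At an adjusted p under 0.05 alone, 2 of the 15 were higher as deposited and 8 after rescaling, against 14.8% and 29.6% of all genes tested. Of 16 type 2 genes 2 fell. By the adjusted p alone, 1 of the 16 was higher and 7 were lower as deposited, and 6 were higher and 3 lower after rescaling. Of all genes tested 14.8% were higher and 49.8% lower as deposited, and 29.6% and 28.6% after rescaling. Nkx2-1, the transcription factor of lung epithelial identity, fell from 159.96, 169 and 143 to 55.04, 34.8 and 29.2 FPKM (-2.01 ± 0.22 (SE, adjusted p = 0.00052)), and Slc34a2, the phosphate transporter of type 2 cells, from 251, 467 and 420.4 to 90.4, 86.1 and 64.6 FPKM (-2.19 ± 0.25 (SE, adjusted p = 0.00057)). Hyphae libraries lay below all controls for both, and below conidia (100.2, 135 and 140.03 and 521, 473 and 442 FPKM) by -1.67 ± 0.22 (SE, adjusted p = 0.0004) and -2.57 ± 0.23 (SE, adjusted p = 7.2e-05). The surfactant genes Sftpa1, Sftpb and Sftpd overlapped between the groups: Sftpb was at 2643, 2998 and 3025 FPKM in control and 3450.1, 3001 and 2476 FPKM in hyphae (adjusted p = 0.85). Among claudins and fluid channels 1 of 22 rose and 2 fell. The rises were 2 without control replicate 2 and 3 without control replicate 3 or hyphae replicate 3, and the falls 1 without control replicate 1 or hyphae replicate 2. Cldn4, a claudin that alveolar epithelium raises on injury, rose from 15.7, 5.58 and 16.6 to 42.6, 60 and 71.7 FPKM (2.21 ± 0.40 (SE, adjusted p = 0.0029)), with conidia at 9.7, 15.9 and 11.6 FPKM.

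**Figure D5:**
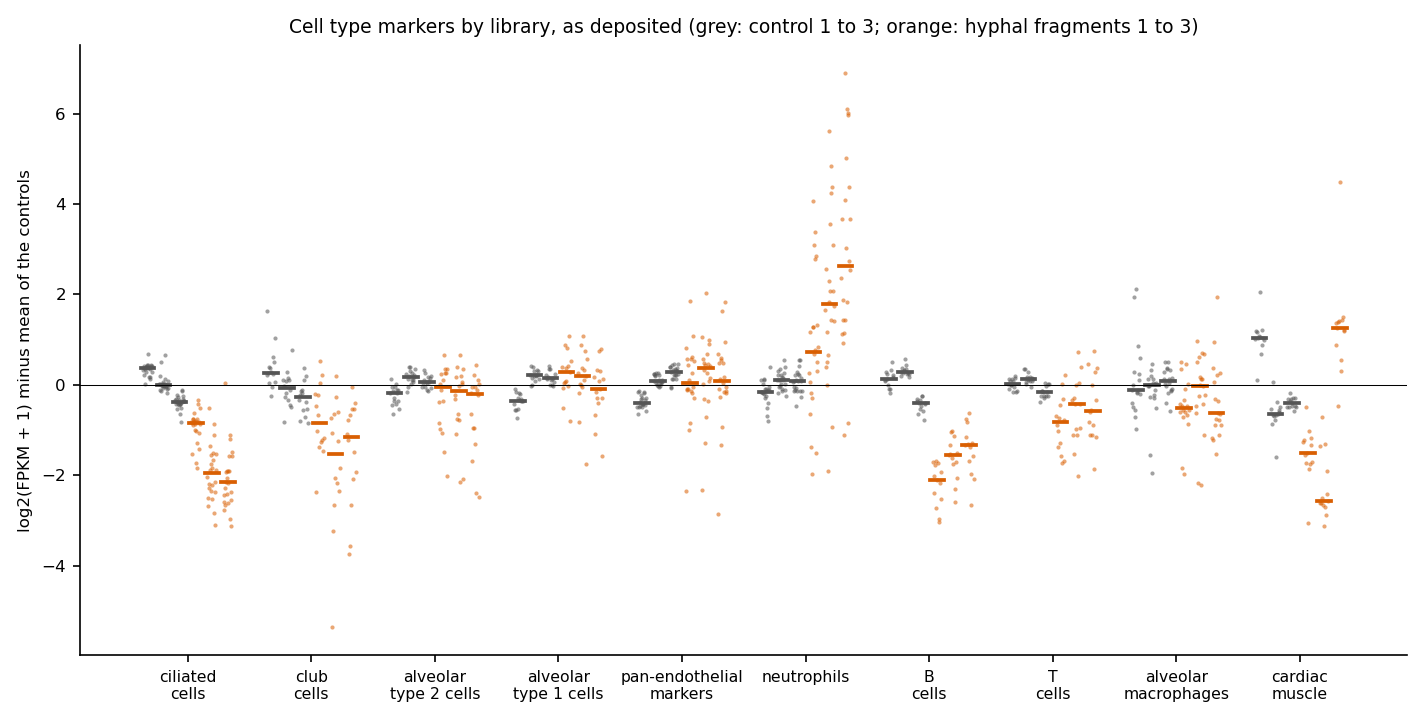
Members of 10 cell type marker lists in each of the 6 libraries, as log2(FPKM + 1) minus the control mean (y axis), with dots for members and bars for medians. Neutrophil medians were 0.72, 1.79 and 2.63 in hyphae replicates 1, 2 and 3 and ciliated medians -0.84, -1.96 and -2.16, while those of alveolar type 1 cells stayed between -0.36 and 0.29 in all 6 libraries.

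Matrix remodelling genes rose in 7 of 19 and fell in 1. Timp3, an inhibitor of metalloproteinases and of ADAM17, rose from 123, 153 and 202 to 673, 567 and 503 FPKM (1.88 ± 0.20 (SE, adjusted p = 0.00044)). Adamts1, a protease that cleaves versican, rose from 25.6, 27.6 and 24.2 to 78.9, 100.5 and 112 FPKM (1.86 ± 0.14 (SE, adjusted p = 0.00022)) and was at 22.7, 19.98 and 13.5 FPKM after conidia, so that hyphae lay above conidia by 2.33 ± 0.19 (SE, adjusted p = 5.3e-05). Mmp11 fell from 19.4, 21.9 and 20.7 to 6.12, 4.84 and 3.64 FPKM (-1.90 ± 0.16 (SE, adjusted p = 0.00025)). Of 20 fibroblast and matrix genes 2 rose, the basement membrane collagens Col4a1 (102, 139.9 and 146 to 328, 367 and 295 FPKM, 1.36 ± 0.16 (SE, adjusted p = 0.00064)) and Col4a2, the latter not called without control replicate 1. Col1a1, the fibrillar collagen, was at 158, 106 and 82.1 FPKM in control and 69.2, 70.01 and 64.6 FPKM in hyphae, lower only as deposited (adjusted p = 0.028, and 0.28 rescaled).

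Single genes outside these groups were among the largest falls. Fam111a, a nuclear protease that restricts viruses, fell from 8.15, 11.4 and 9.13 to 0.56, 0.46 and 0.72 FPKM (-2.73 ± 0.15 (SE, adjusted p = 0.00014)) and stood at 8.16, 11.03 and 8.06 FPKM after conidia (-2.66 ± 0.16 (SE, adjusted p = 2.5e-05)). Tnfsf10 (TRAIL), a ligand that triggers apoptosis, fell from 19.8, 31.9 and 35.8 to 1.93, 2.32 and 3.1 FPKM, whereas Fas, a death receptor, rose from 21.9, 27.4 and 27.3 to 98.6, 133 and 166 FPKM (2.31 ± 0.20 (SE, adjusted p = 0.00026)). Lrat, which stores retinol as esters, fell by the test from 4.55, 5.54 and 46.5 to 0.96, 1.32 and 0.55 FPKM, but 1 control library at 46.5 FPKM sets its size (-2.65 ± 0.79 (SE, adjusted p = 0.023)) and the call was lost without control replicate 2 or any 1 of the hyphae libraries. Rbx1-ps was at 14.4, 9.49 and 17.7 FPKM in control and is listed at 0 in all 3 hyphae libraries. It is a pseudogene whose reads could be shared with its parent gene, so its value is uncertain.

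For 3 large housekeeping families, the cytosolic ribosomal, oxidative phosphorylation and proteasome genes, the sign of the median difference depended on the scaling. Of 83 cytosolic ribosomal protein genes none rose or fell. At an adjusted p under 0.05, 1 was higher as deposited and 71 after rescaling, against 14.8% and 29.6% of all genes tested. Their medians were -0.016 and 0.41. Mitochondrial ribosomal proteins fell in 5 of 78 (3 without hyphae replicate 2), 6.41% against the background of 7.9%. Their median was below 0 under both scalings, -0.57 as deposited and -0.213 rescaled. None of 80 oxidative phosphorylation, 37 proteasome or 22 cell cycle genes rose or fell, apart from 1 cell cycle gene that fell without hyphae replicate 1. Medians as deposited and rescaled were -0.325 and 0.098 for oxidative phosphorylation and -0.071 and 0.344 for proteasome genes. Those of cell cycle genes were -0.607 and -0.264, the same sign under both. Mki67, a marker of dividing cells, was at 2.71, 2.84 and 2.61 FPKM in control and 2.79, 2.49 and 3.14 FPKM in hyphae. Zinc finger genes of the Zfp series differed: of 306 tested, 66 fell and 6 rose, 21.6% and 1.96%, with a median of -0.845 (-0.551 rescaled). Many of them encode DNA-binding repressors of the KRAB family, and Zfp36, named above, is among the 6 that rose (4 without hyphae replicate 3). With a pseudocount of 0.1 in place of 1, 129 of the 306 fell.

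Hyphae were set against conidia directly. In the fit of all 9 libraries, 1752 genes were higher (12.7% of 13761) and 5847 lower (42.5%) in hyphae than in conidia as deposited at an adjusted p under 0.05. After rescaling, 3496 were higher and 3492 lower (25.4% each). Of the genes above, Fosl1, Gdf15, Adm, Sesn1, Camp and Per1 lay above conidia, and Saa3, Orm1, Timp1, Il1rn, Csf3r, Clec1a, Calcrl, Ccr2 and Slc34a2 below it, under both scalings. Per1 for instance was at 58.8, 41.4 and 50.9 FPKM after conidia (2.31 ± 0.37 (SE, adjusted p = 0.0011)). Cxcl3, Tnf, S100a9 and Ccl3 did not pass between the inocula. Other chemokine and cytokine genes, Cxcl1, Il6 and Lif, did pass as deposited. Lif kept its call whichever library was left out. Cxcl1 and Il6 each lost theirs without conidia replicate 2 or 3 or hyphae replicate 2 or 3. For Cxcl3 the difference was 0.04 ± 1.16 (SE, adjusted p = 0.98), with a wide spread over the conidia libraries (162, 9.45 and 31.5 FPKM), which leaves several-fold differences either way undetectable.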

How the data were processed

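The 6 whole-lung libraries compared, and the 3 conidia libraries set beside them, were each deposited by the authors as a table of FPKM per gene. Per the submitters' processing notes HISAT, Bowtie2 and mm9 were used, without versions or roles, and no source used here names the tool that computed FPKM. Depth is not stated. The steps of low FPKM values, with transcript lengths and an assumed fragment length of 150 bases, put it near 19500000 to 20300000 fragments a library, as an approximation. FPKM carries no counts, so no count model was used.

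Tables were joined by gene identifier. Values were taken as log2(FPKM + 1), and genes reaching 1 FPKM in 3 or more of 6 libraries were fitted with limma 3.58.1 in R 4.3.3 (robust empirical Bayes, adjusted p threshold 0.05), as deposited and after division by median-of-ratios factors. The conidia contrast used a fit of all 9 libraries. On data simulated for hyphae against control, 68% of genes changed by log2 1 and 96% of those changed by log2 2 were recovered. Only a small share of genes was changed in that simulation, against 64.5% called in the data as deposited. The adjusted p depends on that share, so these figures do not measure detection in the data. Of 1009 genes in 67 hand-written lists 1003 were in the files and 912 were tested. A further 7 lists took genes by the pattern of their symbol and are not in those counts. Genes named were the 15 largest rises and 15 largest falls that passed both scalings, up to 4 members of each list and a set of reference genes (227 in all). The members and lists were chosen with earlier results of these data known, and further list members, Foxf1, Ackr3, Il4ra, Trp53, Ccl11 and others outside that rule, were named after their values were seen. Some genes that the rule names are not reported here. Promoters matched by symbol in RefSeq (GRCm38.p6). No coordinates from mm9 are given. Alternatives were another pseudocount, no filter on low values, all 9 libraries in 1 fit, the replicate number as a block, plain empirical Bayes and leaving out each library.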

Additional observations from a re-analysis of the deposited data

How the results depend on the processing

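Counts of genes at an adjusted p under 0.05 (limma) moved with scaling in their direction: 2002 higher and 6741 lower as deposited became 4010 higher and 3875 lower after rescaling. The count of genes that fell 2-fold under both scalings went from 1070 to 1760 with a pseudocount of 0.1, which weights genes of low level more. All other counts over genes stayed within 1.5 times: leaving out 1 library gave 7219 to 9127 genes called as deposited, 6124 to 8327 after rescaling, 605 to 739 risen and 848 to 1324 fallen, and no filter on low values gave 9566 called. Of the 223 named genes that were tested, 140 passed against conidia, 144 after rescaling and 109 to 147 without 1 library. Over all genes of that fit 12.7% were higher and 42.5% lower as deposited, and 25.4% each way after rescaling. The named genes were picked in part for large changes, so their counts are no result about them as a set.

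Replicate numbers were tried as a block although nothing says that they pair libraries. Deviations of same-numbered control and hyphae libraries correlated at 0.1, 0.43 and -0.138 over genes, and control replicate 1 correlated best with hyphae replicate 3 (0.257). With the block 8484 genes were called, 636 rose and 1079 fell, and 11 of 223 named genes lost their call.

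Small differences changed sign in some named genes that had not passed the test or not by 2-fold; the cause was not tested. After rescaling Cyba was at 0.276, Tagln at 0.158, Npm1 at 0.143, Card9 at 0.247, Notch4 at 0.235 and Arg1 at 0.197. Over the 6 fits that left out 1 library, Cox8a ran from -0.067 to 0.124, Psmb4 from -0.008 to 0.179, Clec7a from -0.768 to 0.103, Card9 from -0.261 to 0.053, Sftpc from -0.054 to 0.24, Arg1 from -0.157 to 0.041 and Mki67 from -0.032 to 0.091. In all 6 fits that left out 1 library, 177 of 223 named genes kept their verdict.

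With 3 libraries a group and no counts, changes of genes with a wide spread between libraries could go undetected, and genes under 1 FPKM were not tested. How often that happened was not measured. Many changes under 2-fold did pass: 8743 genes were called as deposited, and with a fold of at least 2 as well 654 were higher and 2317 lower. Over 5 bins of transcript length the median difference ran from -0.426 for the shortest to -0.294 for the longest genes.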

Other observations

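Few genes of lipid mediator and arginine metabolism changed. Of 16 eicosanoid genes 3 rose, 1 without hyphae replicate 3. Ptgs2 (COX-2) was at 12.9, 7.87 and 5.73 FPKM in control, 10.5, 4.56 and 5.17 FPKM after conidia and 13.1, 18.1 and 40.1 FPKM in hyphae, a limma difference from control of 1.25 ± 0.43 (SE, adjusted p = 0.037) that was lost without control replicate 2 or 3 or hyphae replicate 2 or 3. Of 10 genes of itaconate, nitric oxide and arginine 2 rose. Acod1, which makes itaconate, went from 0.41, 0.06 and 0.49 to 2.14, 12.3 and 37.3 FPKM (3.16 ± 0.82 (SE, adjusted p = 0.014)), a call lost without control replicate 1 or 2 or hyphae replicate 2. Arg2 went from 4.56, 3.13 and 5.59 to 18.6, 31.9 and 34.6 FPKM (2.42 ± 0.27 (SE, adjusted p = 0.0005)). Nos2, the inducible nitric oxide synthase, was lower, 1.73, 2.26 and 1.89 against 0.32, 0.3 and 0.65 FPKM, by -1.06 as deposited and -0.85 rescaled. After conidia Nos2 was at 7.38, 2.54 and 2.12 FPKM.

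Of 23 genes of amino acid transport and tRNA charging 3 rose, all of them transporters: Slc7a1, for arginine and lysine, went from 3.76, 3.63 and 3.6 to 8.29, 9.49 and 9.78 FPKM (1.12 ± 0.10 (SE, adjusted p = 0.0003)), Slc7a5, for large neutral amino acids, from 3.99, 2.88 and 4.71 to 11.6, 11.1 and 9.28 FPKM (1.28 ± 0.17 (SE, adjusted p = 0.00088)), and Slc7a11, the cystine carrier, by 1.59 ± 0.49 (SE), not called without hyphae replicate 2 or 3. Asns, asparagine synthetase, was at 15.7, 11.5 and 15.8 FPKM in control and 17.9, 16 and 18.8 FPKM in hyphae. Of 19 genes of lipid and sterol synthesis 1 fell (2 without hyphae replicate 1), Hmgcs1 of the mevalonate pathway, from 33.6, 44.9 and 31.1 to 12.3, 11.2 and 12.4 FPKM (-1.52 ± 0.14 (SE, adjusted p = 0.00034)), not called without control replicate 2. Il4ra, the receptor chain for interleukins 4 and 13, rose from 21.7, 35.3 and 27.6 to 161, 186 and 192 FPKM (2.65 ± 0.18 (SE, adjusted p = 0.00019)) and was at 109, 48.4 and 75.5 FPKM after conidia. None of its 3 hyphae values came near the controls.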
